A study of Homo sapiens with 3 samples.

Results

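The comparison described here is that of lysine removal in khES3 cells, a human embryonic stem cell line long in use, and it takes 2 of the 3 arrays of the series. One array holds RNA from undifferentiated khES3 cells kept for 5 hours in medium without lysine, and the other RNA from the same line kept for 5 hours in complete medium. The remaining array holds RNA from khES3 cells after 5 hours in leucine-deprived medium, and its values are given where they place a lysine value. Before the assay the cells were grown in human embryonic stem cell medium, and the labels name no allele, transgene or drug for any group. Every probe set outside the array's controls that names exactly 1 gene entered the comparison. With 1 array per medium there was no replicate, no test and no p-value, and the labels tie the arrays to no separate cultures.

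Lysine is an essential amino acid that human cells take up and cannot make. Cells sense a missing amino acid chiefly in 2 ways. Uncharged tRNA activates the kinase GCN2 (EIF2AK4), which phosphorylates eIF2 alpha, slows general translation and favours translation of the transcription factor ATF4. ATF4 with C/EBP partners then switches on genes for amino acid uptake, amino acid synthesis, tRNA charging and feedback. The other way is loss of mTORC1 activity at the lysosome, through Rag GTPases, Sestrins and the CASTOR proteins. Lysine differs from leucine in its carriers, the cationic transporters of the SLC7 family, in its breakdown through saccharopine, and in its use as the site of methyl, acetyl and hydroxyl marks on proteins.

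The deposited values are MAS5 signals on a linear scale, and each array had been scaled to a common trimmed mean of 500.1. Differences below are log2 signal of the lysine-deprived array minus log2 signal of the complete-medium array, so that 1 is 2-fold higher. Signals under a floor, the 40th percentile of each array (54.6 on the complete-medium, 56.7 on the leucine-deprived and 62.4 on the lysine-deprived array), were set to it, and genes under it on one side have a bound only. In all 12961 genes passed the level filter, and 12227 of them had both signals over the floor. Genes read by several probe sets give the one internal error, the SD among a gene's own differences, which was 0.57 over 5981 genes and 0.50 over 3864 brighter ones. Variation between cultures is not part of it. The RNA of the lysine-deprived array gave the largest gap between the ends of a control transcript, with an ACTB 3′ to 5′ signal ratio of 11.2 against 7.55 for leucine-deprived and 5.44 for complete medium. GAPDH gave ratios of 1.25, 1.23 and 1.08 in the same order. The part of RNA quality in the differences below was not tested.

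The stem cell identity of the RNA was checked on 9 markers, of which 7 were measured on single-gene probe sets, and all 7 lay above the floor on both arrays. SOX2, a core pluripotency factor, gave a signal of 18755 in complete and 21643 in lysine-deprived medium. NANOG, its partner, gave 15765 and 15731. POU5F1 and TDGF1 were not among the single-gene probe sets. Of 8 fibroblast markers, listed because stem cells are often kept on feeder cells, 7 lay above the floor in complete and 6 in lysine-deprived medium, with summed signals of 28183 and 29595. COL1A1 and THY1 made up most of that sum, while COL3A1 and LUM were below the floor without lysine and DCN was dim. In bulk RNA, fewer cells of a type and less RNA per cell cannot be told apart.

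**Figure D1:**
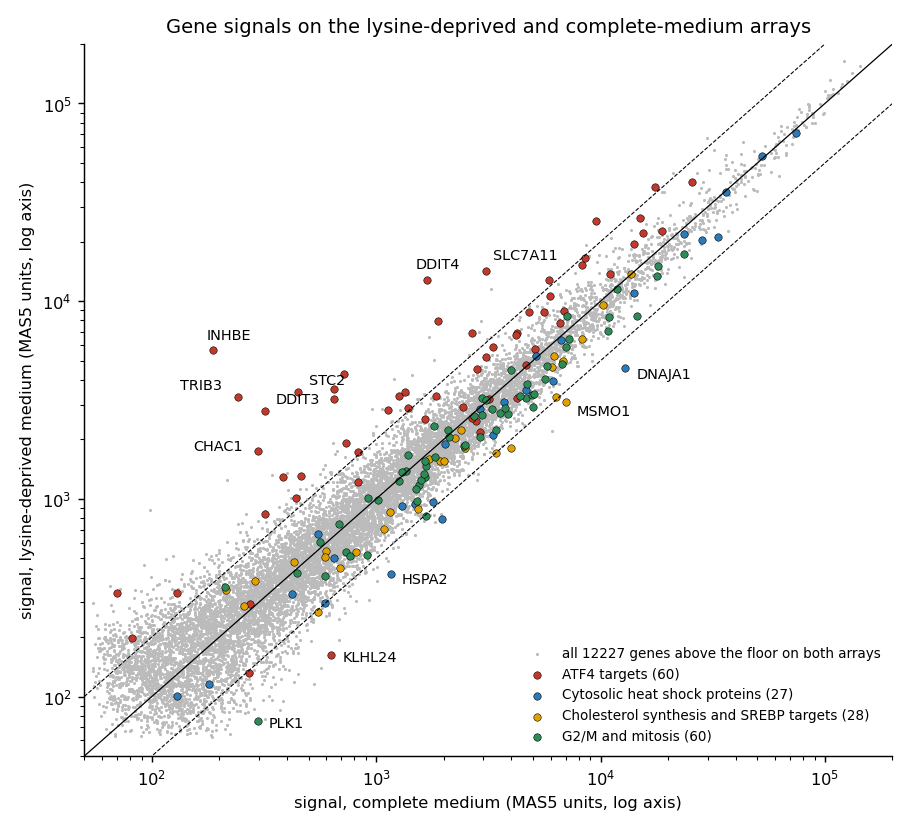
Signal of each gene in lysine-deprived medium (vertical, MAS5 units, log axis) against complete medium (horizontal, MAS5 units, log axis), 1 array each, for the 12227 genes whose signals both cleared the floor; the solid line marks equal signals, the dashed lines 2-fold, and colours mark 4 gene lists. INHBE, TRIB3 and DDIT3 lie farthest above the line among brighter genes, those at or over the median level, taken over all arrays. The widening of the grey cloud to the lower left shows the larger spread of dim genes.

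After 5 hours without lysine, 516 of the 12227 genes compared had at least 2-fold more signal (4.22%) and 239 at least 2-fold less (1.95%). Brighter genes, meaning those whose level reached the median of all kept genes, numbered 6481. Of these 90 (1.39%) passed 2-fold upwards and 28 (0.432%) downwards. Level is the mean signal over all arrays, the deprived ones included, so a high signal without lysine itself helps a gene to count as brighter. With levels from the complete-medium array alone, 49 brighter genes passed 2-fold upwards and 54 downwards. Over all genes that choice gave 318 higher and 279 lower. The median difference over all genes was 0.00, with an SD of 0.59, and 50.5% of genes lay above 0. These counts follow the level of a gene closely. In the dimmest of 5 equal groups of genes (median complete-medium signal 107) 17.7% passed 2-fold in either direction, and in the brightest group (median signal 5195) 0.926% did. The SD of the differences went from 0.92 to 0.35 between the same groups. Values of brighter genes and of whole lists are therefore given most room. The excess of higher over lower genes thus depends on how level is taken, and it also depends on the scale. Centring each array on its median signal moved the median of all genes to −0.24, which left 259 genes higher and 584 lower. That shift applies to every difference below, and a difference is best read against the median of all genes. Where a list's sign turns under it, this is said. Counts of list members past 2-fold are best read beside the 4.22% and 1.95% of all genes.

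**Figure D2:**
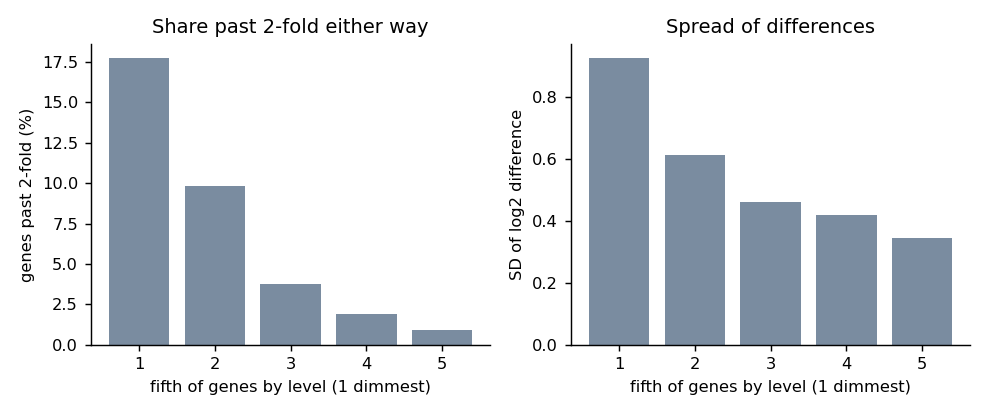
Share of genes past 2-fold in either direction (left, percent of genes with both signals over the floor) and SD of the log2 difference (right) in 5 equal groups of genes by mean level, from 1, the dimmest, to 5. The share drops from 17.7% to 0.926% and the SD from 0.92 to 0.35.

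A second probe set was used to see how far single genes hold. Of the 90 brighter genes at least 2-fold higher, 56 had another kept probe set, and it lay above 0 for 47 of them, with a median of 0.77. Of the 28 lower ones 13 had another, and it lay below 0 for 11, with a median of −0.49. Over all genes, bright or dim, the share was smaller: 118 of 176 for higher genes and 38 of 75 for lower ones. About as many second probe sets lay on the opposite side as on the same side for the lower genes. Signals given below are those of a gene's brightest probe set. Its probe sets lay on both sides of 0 for ALDH7A1, ATF6, CBS, CCNA2, CCNB1, CREB1, DHPS, DHTKD1, DUSP6, EHMT2, ETV5, FGD2, H2AX, HSP90AA1, HSPD1, INHBA, MAD2L1, MKI67, NDUFA10, SCD, SGO1, SLC7A6 and SOX2, besides the genes where this is said in place. Their differences rest on that 1 probe set.

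Several transcription factors of the amino acid response had at least 2-fold more signal than in complete medium. ATF4 itself, among the brightest of the listed factors, did not pass 2-fold. It had a signal of 15422 in complete, 23778 in leucine-deprived and 26784 in lysine-deprived medium, a difference of 0.80. DDIT3, which encodes CHOP, a C/EBP family partner and target of ATF4, had signals of 319, 2830 and 2776 in the same order, 8.70-fold higher without lysine. ATF3, a repressor in the same family, had 646, 2997 and 3204. Both deprived arrays are far from the complete-medium array for DDIT3 and ATF3, and close to each other. The second ATF3 probe set differed by −0.28, against 2.31 for the brighter one, so the ATF3 value rests on 1 probe set. CEBPB, a C/EBP factor that binds with ATF4, had 1890 in complete and 7938 in lysine-deprived medium (difference 2.07), and JDP2, an AP-1 repressor, 386 and 1286 (1.74). CEBPG, the usual dimer partner of ATF4, had 1124 and 2828, with its 2 probe sets at 1.33 and 1.25. The signals of CREB1, CREB3 and ATF6, factors of related families, differed by 0.01, 0.00 and 0.07. Of the 22 listed factors that were measured, 8 had at least 2-fold more signal and 1, CEBPA (147 and 69), at least 2-fold less, where 4.22% and 1.95% of all genes did. The median difference was 0.68, with 5 of the 22 below 0.

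The list of ATF4 targets was drawn from general knowledge of the pathway, with earlier results of these data already known. It therefore describes these arrays and is no evidence of its own direction. The list had 65 genes, of which 61 passed the level filter. Its median difference was 0.88, against 0.00 for all genes, and 55 of the 61 lay above 0. Of the 60 with both signals over the floor, 28 were 2-fold higher or more and 2 were 2-fold lower or more. Over all genes the shares were 4.22% and 1.95%. The same list had a median of 0.98 on the leucine-deprived array over complete medium. Both medians share the complete-medium array. The 2 lower members were KLHL24 and ADM2. KLHL24 had signals of 631 in complete, 564 in leucine-deprived and 162 in lysine-deprived medium on its brightest probe set, but its 5 probe sets ran from −1.96 to 1.08, so no single direction describes it. Other members at or below 0 were ALDH18A1, a proline synthesis enzyme (−0.38), CBS, a transsulfuration enzyme (−0.41), MAP1LC3B, an autophagosome protein (−0.17), and ETV5 (−0.07). PHGDH, the first enzyme of serine synthesis, had 4639 in complete, 6241 in leucine-deprived and 4738 in lysine-deprived medium.

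INHBE, which encodes the beta E subunit of activin, a secreted factor of the TGF-beta family, differed most of all brighter genes. Its signal was 188 in complete medium, 4046 without leucine and 5637 without lysine, a difference of 4.90 on 1 probe set. TRIB3, a pseudokinase that restrains ATF4 and AKT, had 242, 3376 and 3258. Its second probe set differed by 0.55 only, against 3.75. STC2, a secreted stanniocalcin that acts on calcium entry and the IGF axis, had 450, 2842 and 3464, and its 2 probe sets agreed in size (2.94 and 2.69). DDIT4, also called REDD1, an inhibitor of mTORC1, was bright on all 3 arrays, with 1680, 12609 and 12820. CHAC1, which breaks down glutathione, had 299, 1930 and 1743, and TAC1, the substance P precursor gene, had 216, 1200 and 1241. For these 6 genes the complete-medium array is the low one and the 2 deprived arrays lie within 0.5 of each other on the log2 scale. Apart from DDIT4, their place among the brighter genes rests on their signals on the deprived arrays. SESN2, the leucine-binding Sestrin that restrains mTORC1, had 437, 1224 and 1015, and its 2 probe sets gave 1.22 and 1.67. VEGFA, the vascular growth factor, had 719 and 4268 on its brightest probe set, with others down to −0.17. GDF15, a stress hormone, had 1654 and 2529.

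**Figure D3:**
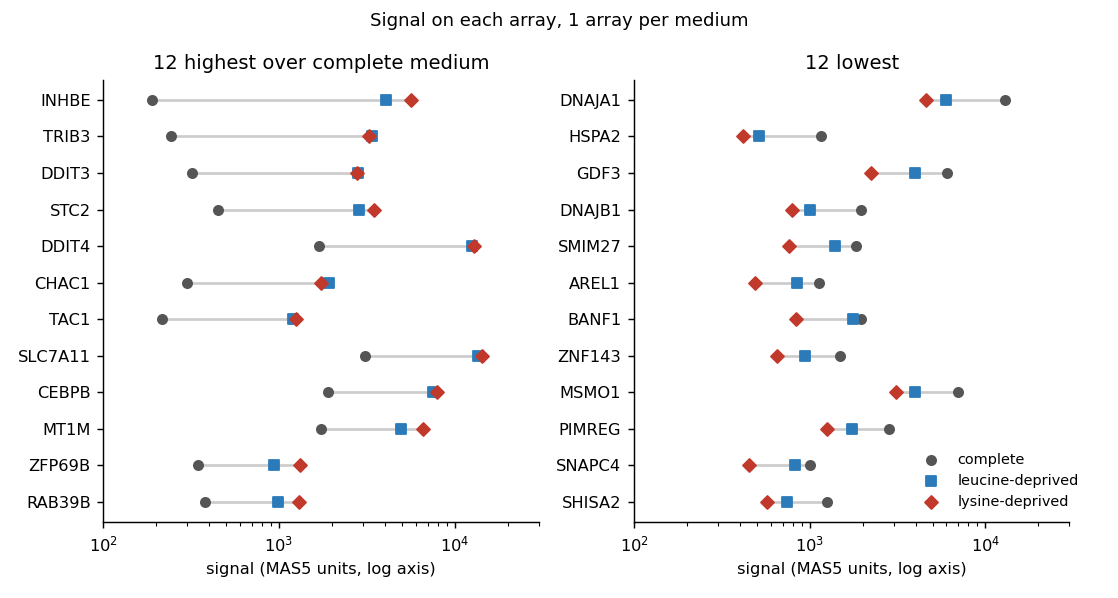
Signal (MAS5 units, log axis) of the 12 brighter genes highest (left) and the 12 lowest (right) without lysine over complete medium, among genes whose probe sets all differ in one direction; circles are complete, squares leucine-deprived and diamonds lysine-deprived medium, 1 array each. On the left the squares lie near the diamonds, and on the right the squares lie between the circles and the diamonds.

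Secreted factors and signalling brakes as a list of 31 genes had a median of 0.51, with 20 above 0. In it 8 were at least 2-fold higher and 1 (ADM2) at least 2-fold lower, against 4.22% and 1.95% of all genes. The 2 further members with a bound were FGF21, a fasting hormone, which was under the floor in complete medium (35) and had 183 without lysine, and CXCL8, a chemokine (48 and 174). The members least moved were IL6 (609 and 628), DUSP6, a phosphatase of ERK (1988 and 2018), and INHBA, another activin subunit (336 and 333). With levels taken from the complete-medium array alone this list's median was 0.12, as that filter leaves out members that were dim there.

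ATF4 and C/EBP dimers bind a composite element, the C/EBP-ATF response element. Promoters of 10510 of the 12961 genes, 250 bases before to 50 after the first-listed start of each gene in RefSeq on GRCh38.p14, were searched on both strands for TGATGNAAN, where N is any base. The element was present in 1.73% of them (182 genes). Among ATF4 targets it was in 12 of 47 (25.5%) and among brighter genes at least 2-fold higher in 8 of 71 (11.3%). Among the brighter lower genes it was in 2 of 23 (8.7%), GDF3 and ZNF143. These windows show the element in capitals on the strand that carries it, for list members that stood higher without lysine, so that its variants can be compared.
CHAC1: ctggcaggagTGATGCAACggcaggggag
ASNS: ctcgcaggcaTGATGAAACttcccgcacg
ATF3: aaggtcaggaTGATGGAAGgctgtcatat
HERPUD1: gggcacgggcTGATGCAACccgccgcgtc
AARS1: ctaacttggcTGATGCAACtgcgagaaaa
CARS1: tcctagaatcTGATGCAACcgccgccccg
FGF21: tcctcctcccTGATGCAATcctggtgttt
SLC7A1: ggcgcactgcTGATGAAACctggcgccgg
The windows lie at chr15:40953251-40953279 (CHAC1), chr7:97872458-97872486 (ASNS), chr1:212565206-212565234 (ATF3), chr16:56931955-56931983 (HERPUD1), chr16:70289676-70289704 (AARS1), chr11:3057408-3057436 (CARS1), chr19:48755459-48755487 (FGF21) and chr13:29595663-29595691 (SLC7A1). The form TGATGCAAC recurred in CHAC1, HERPUD1, AARS1 and CARS1. A match is a description of letters and not a site of binding. Within the ATF4 list the median difference was 1.01 with the element and 1.06 without it in this window, so its presence here did not sort the members by size.

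The whole upstream promoters of CHAC1 and ASNS are given because both carry the element and both genes are standard readouts of the pathway. Capitals mark the element (in CHAC1 read on the opposite strand, as GTTGCATCA) and CCAAT boxes, which bind NF-Y, on either strand.
CHAC1: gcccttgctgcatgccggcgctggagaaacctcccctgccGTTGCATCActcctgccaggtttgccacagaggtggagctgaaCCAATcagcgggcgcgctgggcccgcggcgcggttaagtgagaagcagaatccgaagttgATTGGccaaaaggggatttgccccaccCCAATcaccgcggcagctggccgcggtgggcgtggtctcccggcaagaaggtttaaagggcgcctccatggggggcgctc
ASNS: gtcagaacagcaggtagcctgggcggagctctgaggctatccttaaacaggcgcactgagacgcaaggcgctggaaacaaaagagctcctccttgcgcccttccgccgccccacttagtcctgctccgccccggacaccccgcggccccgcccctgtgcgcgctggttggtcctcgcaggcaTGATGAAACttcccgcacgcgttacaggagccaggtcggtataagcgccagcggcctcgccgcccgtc
They span chr15:40953221-40953470 on the plus strand and chr7:97872409-97872658 on the minus strand of GRCh38.p14, from RefSeq. In CHAC1 the element begins at base −210 from the start and 3 CCAAT boxes follow it. In ASNS it begins at −68, with no CCAAT box. ASNS, asparagine synthetase, had signals of 2672 in complete, 6551 in leucine-deprived and 6875 in lysine-deprived medium.

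Among genes that supply amino acids and one-carbon units, single members stood higher, while the medians of their lists lay between −0.05 and 0.23. In the one-carbon list of 17 measured genes, MTHFD2, the mitochondrial folate enzyme, had 9581 and 25473 (difference 1.41, second probe set 0.99), PSAT1, a serine synthesis enzyme, 17444 and 37633, and SHMT2, which splits serine for mitochondrial folate, 8302 and 15299. MTHFD1, the cytosolic folate enzyme, had 9754 and 6500. The list's median was 0.15, and −0.10 under median centring. CTH, which makes cysteine, had 1346 and 3460, while most of its list of 17 methionine and transsulfuration genes lay below 0 (11 of 17, median −0.05). In the list of asparagine, arginine, proline and glutamine enzymes 17 genes had both signals over the floor. Of these 5 were at least 2-fold higher, against 4.22% of all genes: ASNS, ASS1 (2880 and 6949), NAGS, ARG1 and PRODH. That list's median was 0.23, and −0.02 under median centring.

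Of the amino acid carriers other than those of lysine 24 were measured, and 5 of the 23 with both signals over the floor were at least 2-fold higher, against 4.22% of all genes. SLC7A11, the cystine and glutamate exchanger, had 3089 in complete, 13567 in leucine-deprived and 14192 in lysine-deprived medium on its brightest probe set, with others down to 0.10. SLC1A4 and SLC1A5, carriers of small neutral amino acids, had 321 and 838, and 831 and 1736. SLC7A5, the main leucine carrier, had 4790 and 8823, and SLC38A2, a glutamine carrier that responds to starvation, 15055 and 26400. The list's median was 0.13 and turned to −0.12 under median centring, so these members do not stand for the list. SLC38A5 was under the floor without lysine (223 and 14).

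Lysine enters cells through cationic amino acid transporters, and of 15 listed genes of its uptake and sensing 12 were measured. SLC7A1, the widely expressed cationic carrier, had signals of 5885 in complete, 13640 in leucine-deprived and 12771 in lysine-deprived medium, a difference of 1.12. Its 3 probe sets ran from −0.04 to 1.17. SLC7A3, the cationic carrier that is also bright in these cells, had 6564, 8167 and 7788, a difference of 0.25. SLC3A2, the heavy chain that several light chains need, had 1854, 3406 and 3307. SLC7A7, a light chain that exports cationic amino acids, was dim, with 218, 400 and 498. Leucine removal left SLC7A1, SLC7A3 and SLC3A2 at levels within 0.10 of those without lysine. SLC7A2 (435 and 313) and SLC7A6 (670 and 542) lay below complete medium. SLC66A1, a lysosomal exporter of cationic amino acids, had 176 and 339, SLC38A9, the lysosomal arginine sensor, 1988 and 2336, and CASTOR1 98 and 96. The list's median was 0.24 with 2 members at least 2-fold higher, and −0.01 under median centring.

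Charging of lysine onto tRNA is done by KARS1, which sits with other synthetases in the multisynthetase complex. KARS1 had 30242 in complete, 32172 in leucine-deprived and 29547 in lysine-deprived medium, a difference of −0.03. On this brightest probe set the gene was thus at nearly the same level on the 3 arrays. Its second probe set had 7740, 7682 and 6458, a difference of −0.26 without lysine. The 6 measured genes of that list had a median of 0.06, which turned to −0.18 under median centring, and ran from −0.45 for AIMP1, a scaffold of the complex, to 0.38 for EPRS1. The 12 cytosolic synthetases outside it had a median of 0.59, and 9 lay above 0. CARS1, for cysteine, had 8567 and 16515, WARS1, for tryptophan, 3081 and 5233, GARS1, for glycine, 25520 and 40136, and AARS1, for alanine, 2826 and 4556. HARS1, FARSA and FARSB, for histidine and phenylalanine, lay at −0.17, −0.15 and −0.31. No gene of either list passed 2-fold.

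Breakdown of lysine begins with AASS, the enzyme that joins lysine to 2-oxoglutarate to form saccharopine. On its brightest probe set AASS had 745 in complete, 493 in leucine-deprived and 1283 in lysine-deprived medium. There the lysine-deprived array was the high one and the leucine-deprived array the low one. Its second probe set had 398, 525 and 394, highest without leucine, and differed by −0.02 without lysine. Neither the difference of 0.78 nor the order of the arrays was thus seen on both. The next enzymes were near or below complete medium: ALDH7A1 had 4506 and 3865, AADAT 425 and 360, DHTKD1 2217 and 2284, and GCDH 670 and 573. SUGCT, which acts on glutarate, had 147 and 290. TMLHE, the first enzyme that turns trimethyllysine into carnitine, had 281 and 413 with 1 other probe set at −0.26. SLC22A5, the carnitine carrier (192 and 43), and HYKK, a hydroxylysine kinase (171 and 58), were under the floor without lysine and have bounds only. The 21 measured genes had a median of −0.03, with 10 above and 11 below 0, and no gene of the list passed 2-fold above the floor.

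**Figure D4:**
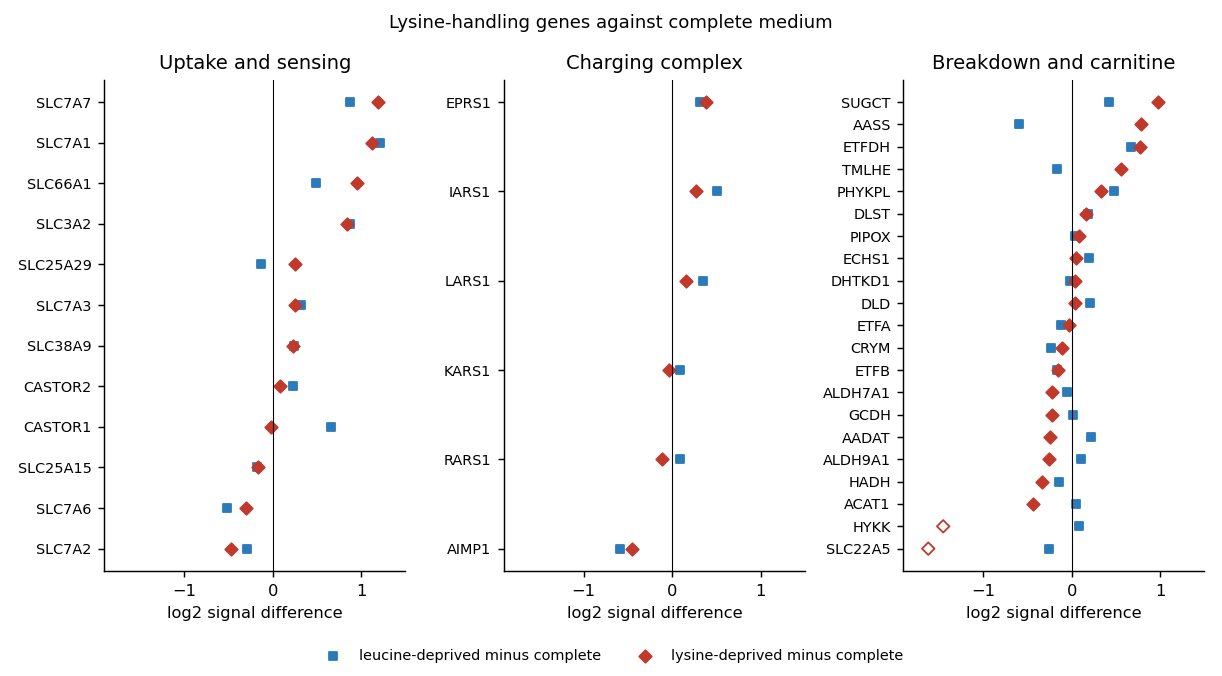
Log2 difference from complete medium for genes of lysine uptake and sensing (left), the charging complex (middle) and lysine breakdown with carnitine synthesis (right); diamonds are lysine-deprived and squares leucine-deprived over the same complete-medium array, and open diamonds are genes under the floor on 1 of the 2 arrays. SLC7A1 has both symbols near 1.1, KARS1 both near 0, and AASS the diamond at 0.78 with the square at −0.60. Symbols show the brightest probe set, and the second AASS probe set gave −0.02 without lysine and 0.40 without leucine.

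Proteins that carry marks on lysine were looked at because lysine is their substrate site. Of 16 measured genes for lysine modification outside chromatin 11 lay below 0, with a median of −0.19. EIF5A, the translation factor that carries hypusine, a modified lysine, had 9192 in complete, 7460 in leucine-deprived and 4963 in lysine-deprived medium, and its 3 probe sets ran from −0.89 to −0.24. The hypusine enzymes DHPS and DOHH had 638 and 651, and 328 and 409. EEF1AKMT1, a methyltransferase of the elongation factor eEF1A, had 522 and 239. The lysyl hydroxylases of collagen PLOD1 and PLOD2 had 682 and 545, and 2578 and 2231.

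Histone lysine methyltransferases (30 genes) had a median of 0.01 and histone lysine demethylases (22 genes) 0.11, which turned to −0.23 and −0.14 under median centring, in step with all genes. Each list had 1 member at least 2-fold higher. These were KMT5A, which methylates histone H4 (359 and 735, with its 4 probe sets from −0.65 to 2.15), and KDM6B, which removes methyl groups from histone H3 (124, 259 and 321 on the 3 arrays). KDM1B had 165, 172 and 312, so it was higher on the lysine-deprived array only, at a low signal. EHMT2, a repressive methyltransferase, had 561 and 332, and PRDM2 787 and 411. Among acetyltransferases and deacetylases (27 genes, median 0.18, and −0.07 under median centring) HDAC4 had 355, 398 and 753, with its other probe set at 0.018, CREBBP 2555 and 4194, with its other at −0.73, and KAT8 877, 831 and 455. Of 14 histone genes H2AC6 was the one at least 2-fold higher (672 and 1738), and H2AX had 5904 and 3689.

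**Figure D5:**
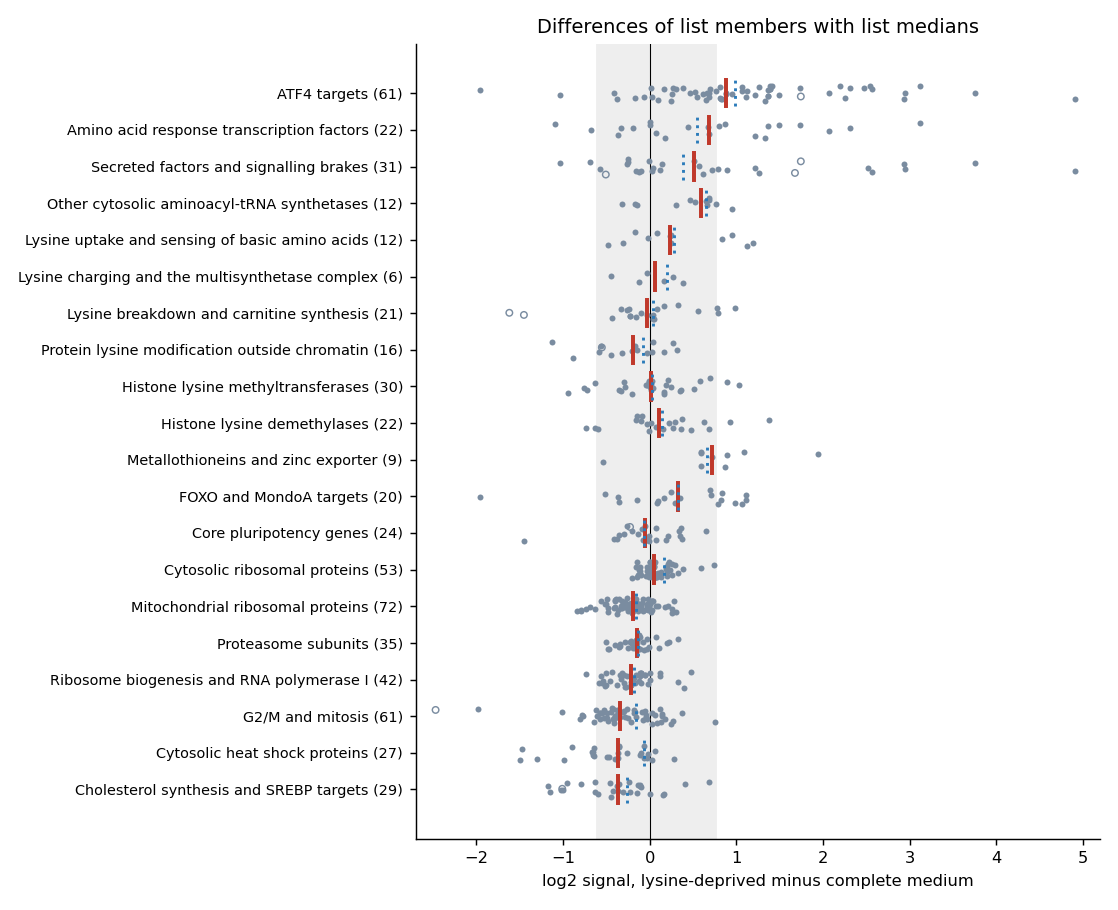
Log2 difference, lysine-deprived minus complete medium, of each measured member (points; open where the gene was under the floor on 1 array) of 20 gene lists, with the number of members in brackets; the red bar is the list median, the dotted blue bar the median for leucine-deprived minus complete medium, and the grey band from −0.60 to 0.76 holds most genes. The ATF4 list lies to the right with a median of 0.88, and heat shock, cholesterol and G2/M genes to the left with medians of −0.37, −0.37 and −0.34.

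Cytosolic heat shock proteins fold new proteins and are driven by HSF1. Of 27 measured genes 24 lay below 0, with a median of −0.37, and 3 were at least 2-fold lower, against 1.95% of all genes. DNAJA1, a cochaperone of HSP70, had 12912 in complete, 5943 in leucine-deprived and 4575 in lysine-deprived medium, and its 2 probe sets gave −1.50 and −1.09. It was the brighter gene furthest below complete medium. HSPA2, an HSP70 family member, had 1166, 513 and 419, and DNAJB1, another cochaperone, 1961, 1002 and 795, with probe sets at −1.30 and −1.13. The 3 genes were thus lower on both deprived arrays. On their brightest probe sets they were a little lower without lysine than without leucine. The second DNAJB1 probe set had 932, 257 and 426, lowest without leucine, and that of DNAJA1 had 7252, 3581 and 3405. HSP90AB1, the constitutive HSP90, had 33414 and 21232, whereas HSP90AA1, the inducible form, had 52202 and 54386. HSPD1 of the mitochondria, also in the list, had 74070 and 71004, and HSF1 550 and 665. The list's median on the leucine-deprived array was −0.07. Set directly against the leucine-deprived array, 19 of 27 genes were lower without lysine, where 54.9% of all brighter genes were. HSF1 binds repeats of GAA, and GAANNTTC, searched as above, was in 6 of 25 promoters of the list (24%) and in 4.70% of all. Members with the motif had a median of −0.36 and those without it −0.47. The DNAJA1 promoter holds the motif at chr9:33025065-33025092 and, just after the start, at chr9:33025266-33025293. The one before the start is shown, because the gene is the lowest of its list.
DNAJA1: aagggctccaGAAGATTCcacgagcgcc

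Cholesterol synthesis genes are targets of SREBP2, which sterols and mTORC1 both govern. Of 29 measured genes of the list 24 lay below 0, with a median of −0.37. At least 2-fold lower were 4, against 1.95% of all genes. MSMO1, a sterol methyl oxidase, had 6994 in complete, 3953 in leucine-deprived and 3102 in lysine-deprived medium. HMGCS1, which makes HMG-CoA, had 3413, 1978 and 1705, and its second probe set gave −1.53. INSIG1, which holds SREBP in the endoplasmic reticulum and is itself an SREBP target, had 549, 295 and 269. IDI1, an isomerase of the isoprenoid steps, had 4005, 2366 and 1799, though 1 of its 4 probe sets gave 0.47. SQLE, which makes squalene epoxide, had 6310 and 3263. The order of the arrays was the same for these 5 genes: complete, leucine-deprived, lysine-deprived. SCD, a fatty acid desaturase, was level (13725 and 13760), and SREBF2 had 692 and 448 while SREBF1 had 289 and 384. CCAAT boxes were in 18 of 26 promoters of the list (69.2%), against 36.4% of all. The list's median was −0.61 with median centring and −0.34 with quantile normalization, below the median of all genes in both.

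Genes of G2 and mitosis carry the cell through division. Of 61 measured genes 48 lay below 0, with a median of −0.34, and 2 of the 60 with both signals over the floor were at least 2-fold lower, a share near the 1.95% of all genes. INCENP was under the floor without lysine. KIF20A, a kinesin of cytokinesis, had 1666 in complete, 1673 in leucine-deprived and 823 in lysine-deprived medium. PLK1, the polo kinase of mitotic entry, had 298, 377 and 75 on a dim probe set. INCENP, a scaffold of Aurora B, had 346, 187 and 28. UBE2C, the ubiquitin carrier of the anaphase-promoting complex, had 14509, 10432 and 8462, CENPA, the centromeric histone, 909, 704 and 519, and CCNB1, the mitotic cyclin, 10790, 8320 and 7075. For these last 3 the leucine-deprived array lies between the others. Genes above complete medium were SGO1 (212 and 359), NDC80 (1811 and 2346), MAD2L1 (7088 and 8412) and CCNA2 (3990 and 4505), and MKI67 (560 and 606) and FOXM1 (1358 and 1379) were close to it. Directly against the leucine-deprived array 46 of the 61 were lower without lysine, where 54.9% of all brighter genes were. The G1/S list (39 genes) had a median of −0.13 on both deprived arrays, with PCNA at 19346 and 12207, MCM3 at 10280 and 6639 and CDT1, a replication licensing factor, at 1091 and 2179.

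Many G2/M promoters carry a cell cycle homology region, TTTGAA, bound by the DREAM and MuvB complexes, together with CCAAT boxes. TTTGAA was in 35 of 51 G2/M promoters (68.6%) and 9.83% of all, and both motifs in 30 of 51 (58.8%) and 4.13% of all. TTTGAA and the heat shock motif can share the letters GAA. The 30 with both had a median difference of −0.41, and the other list members with a promoter −0.17. For TTTGAA alone the medians were −0.40 with it and −0.33 without it. For CCAAT alone they were −0.40 and −0.17, so the gap was smaller for TTTGAA than for CCAAT. The part of either motif was not tested. The list was chosen from known mitotic genes, which these motifs are known to mark. PLK1 is shown in full as it holds both, with TTTGAA at base −29 and CCAAT at −73, on chr16:23678639-23678888, plus strand.
PLK1: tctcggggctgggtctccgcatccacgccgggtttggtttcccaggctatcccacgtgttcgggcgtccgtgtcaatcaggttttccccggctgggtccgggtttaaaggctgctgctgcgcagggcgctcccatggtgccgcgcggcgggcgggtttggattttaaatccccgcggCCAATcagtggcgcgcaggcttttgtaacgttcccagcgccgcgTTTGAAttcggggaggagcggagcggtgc
The same letters stand close to the start in other members, here with TTTGAA in capitals and 10 bases on either side: CENPA at chr2:26786028-26786053, CDC20 at chr1:43358906-43358931 and CDCA8 at chr1:37692483-37692508.
CENPA: gagcgagcgaTTTGAAcgcgagcggc
CDC20: acggttggatTTTGAAggagccaata
CDCA8: gactgtggagTTTGAAttgggtggcg
CDC20 differed by −0.48 and CDCA8 by −0.40 without lysine.

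Lists of the machinery of growth lay a little below complete medium with few large members. Mitochondrial ribosomal proteins had 58 of 72 below 0 (median −0.20), ribosome biogenesis genes 35 of 42 (−0.21), proteasome subunits 30 of 35 (−0.15), respiratory chain subunits 40 of 51 (−0.15) and purine and pyrimidine synthesis 23 of 29 (−0.21). Brighter genes as a whole had a median of −0.03 with 46.7% above 0. None of the first 4 lists had a member past 2-fold. MRPS2 had 2101, 1825 and 1209 on the complete, leucine-deprived and lysine-deprived arrays, MRPL16 6043, 4984 and 3483, POLR1C, a subunit shared by RNA polymerases I and III, 1688, 1041 and 1012 (other probe set 0.17), and NDUFA10, of complex I, 4584, 3570 and 2852. Cytosolic ribosomal proteins, whose mRNAs are controlled mainly in translation, had a median of 0.05 with 37 of 53 above 0, and −0.20 under median centring, and ran from −0.20 for RPL29 to 0.74 for RPLP2, which is dim and whose other probe set gave −1.53, under the floor without lysine. RPS25 had 42390 and 55544 and RPS23 105011 and 131537. Glycolysis and hypoxia genes (35) had a median of −0.18, with ENO1 at 40492 and 29327.

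Smaller groups stood above complete medium. Metallothioneins, zinc-binding proteins of MTF1 control, had 8 of 9 genes above 0 and a median of 0.72. MT1M had 1723 in complete, 4946 in leucine-deprived and 6597 in lysine-deprived medium, MT1F 21071 and 44740 and MT2A 32050 and 58306. These paralogs are near-identical, and their probe sets may share signal; without cross-hybridising probe sets the median was 0.38. Hosts of small nucleolar RNAs, measured for 6 of 17, had a median of 0.59, with EPB41L4A-AS1 at 2920, 6272 and 7901 and SNHG32 at 6496 and 12266. FOXO and MondoA targets, genes of low nutrient supply, had a median of 0.32 with 15 of 20 above 0; ARRDC4 had 967 and 2096, FOXO3 1630 and 3402 and TXNIP 1253 and 2470. G0S2, an inhibitor of fat breakdown, had 98, 1109 and 879, and EGR1, an immediate early factor, 400, 1612 and 1356, with all 3 of its probe sets between 1.76 and 2.14. GRPEL2, a mitochondrial chaperone cofactor, had 1805 and 5051 whereas its paralog GRPEL1 had 2334 and 1370.

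Sensors of amino acids lay on both sides of complete medium at the level of mRNA, with most mTORC1 pathway genes a little below it. Of 40 measured mTORC1 pathway genes 27 lay below 0 (median −0.14). At least 2-fold lower were 4, and 1, SESN2, was at least 2-fold higher, against 1.95% and 4.22% of all genes. Of the lower ones RRAGB, ULK1 and ITFG2 were not among the brighter genes. RRAGB, a Rag GTPase, had 185 in complete, 328 in leucine-deprived and 76 in lysine-deprived medium, ULK1, the autophagy kinase, 358, 424 and 161, and ITFG2, of the KICSTOR complex, 782, 465 and 372, with its 3 probe sets from −1.07 to 0.16. FNIP1, of the folliculin complex, had 896, 1007 and 440 on its brightest probe set, but its 4 ran from −1.03 to 0.66, so no single direction describes it. RRAGB and ULK1, with 1 probe set each, were low on the lysine-deprived array and not on the leucine-deprived one. Among 15 genes of eIF2 alpha kinases and phosphatases GCN2 itself (EIF2AK4) had 2255, 1855 and 3066, PPP1R15A, the stress-induced phosphatase subunit, 205 and 354, and ABCF3, related to a yeast partner of GCN1, 569, 400 and 140. TFEB, the master factor of lysosomal genes, had 72 in complete medium and differed by 2.28 without lysine, and the 44 autophagy and lysosome genes, TFEB included, had a median near 0 (−0.02).

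Pluripotency genes stayed near complete medium, with a median of −0.05 over 24 genes. GDF3, a ligand related to NODAL and made by stem cells, was the one member at least 2-fold lower, with 6075 in complete, 3949 in leucine-deprived and 2218 in lysine-deprived medium. NODAL itself had 1008, 1076 and 625, and OTX2, a homeobox factor, 1308, 1423 and 2056. FST, which binds activins, had 3504, 4458 and 6691. LIN28A had 36158 and 46553, SALL4 4980 and 3758, and DNMT3B 50711 and 46198. In the BMP list (19 genes, median 0.13) ID4 had 457, 1084 and 1119, with its 5 probe sets from −1.17 to 1.71, and ID3 1226 and 2078, while ID1 had 24818 and 19595. In the Wnt list (20 genes, median 0.07) WNT5A had 626, 935 and 1374. Both medians turned below 0 under median centring, at −0.12 and −0.18. Markers of germ layers and trophoblast were mostly dim. Of 16 measured germ layer markers 9 lay below 0 (median −0.09): TBXT had 171 and 454, HHEX 143 and 71, and EOMES was under the floor without lysine (126 and 55). GATA2, of the trophoblast list, had 190 and 477, with its other probe set at −0.36. COL6A2, in the fibroblast list, had 92 and 284, with its other probe set at −1.005 and under the floor without lysine, beside COL1A1 at 11552 and 18609 (5 probe sets from −0.26 to 1.46). THY1 had 12735 and 7503 on its brightest probe set, and its other 2 were level, at 0.042 and 0.037.

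Set directly against the leucine-deprived array, the 5 widest differences each way are given for brighter genes whose probe sets all differed in one direction between those arrays. Wider values with probe sets on both sides, as for AASS and FNIP1, are left out. QNG1, a queuosine salvage enzyme, had 1204 in complete, 1281 in leucine-deprived and 4044 in lysine-deprived medium, with its second probe set at 0.48 over complete medium. ZNF160 had 1284, 1047 and 2806, FBXW12 580, 501 and 1137, NACA4P, a pseudogene that may share signal with its parent, 4785, 2969 and 9459, and RWDD3 1398, 698 and 1763. The signals given for QNG1, ZNF160, FBXW12 and NACA4P come from probe sets marked as cross-hybridising, which may share signal with other genes. On the lower side stood BANF1, a chromatin-binding protein of the nuclear envelope (1952, 1755 and 839), AP1M1 (612, 989 and 483), KIF20A (1666, 1673 and 823), GTF2H4 (796, 869 and 429) and ANAPC15 (835, 865 and 449). KIF20A and ANAPC15, a subunit of the anaphase-promoting complex, both act in mitosis. With 1 array per medium none of these differences has a replicate. The SD between probe sets, 0.50 over brighter genes, was taken for lysine-deprived over complete medium and not between the deprived arrays. Genes with 1 probe set give no such spread.

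The other brighter genes furthest from complete medium have less known links to amino acid supply. ZFP69B, a zinc finger gene, had 344, 930 and 1314 on the complete, leucine-deprived and lysine-deprived arrays and RAB39B, a vesicle GTPase, 381, 988 and 1292. On the lower side SMIM27 had 1834, 1399 and 762, AREL1, a ubiquitin ligase, 1134, 847 and 486, ZNF143, a transcription factor of housekeeping promoters, 1488, 944 and 653, PIMREG, a mitotic protein, 2823, 1750 and 1253, SNAPC4, of the small nuclear RNA complex, 1009, 823 and 451, and SHISA2, a trafficking protein, 1253, 738 and 569. On their brightest probe sets the leucine-deprived array lies between the others for all of them. Second probe sets of SMIM27 and SNAPC4 gave −0.21 and −0.06. Their signals were 678, 570 and 586 for SMIM27 and 532, 184 and 509 for SNAPC4, both lowest without leucine. Beyond the 12227 genes compared, 267 genes had a higher and 204 a lower bound of at least 2-fold. The widest bounds were dim ones, LINC00622 (43 in complete and 396 in lysine-deprived medium), CRYGD (28 and 390) and, on the lower side, FGD2 (379 and 24) and INCENP.

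The lists not yet described lay close to all genes, and their small positive medians turn below 0 under median centring, as that of all genes does. The list of ER chaperones and the unfolded protein response (29 genes) had −0.10 as its median, with HERPUD1 (1381 and 2898), which has the response element, and EDEM1 (273 and 547) at least 2-fold higher and SDF2L1 (1642 and 770) at least 2-fold lower. Glutathione and NRF2 genes (26) had a median of 0.08, translation factors (42) 0.01, p53 targets (25) −0.10, BCL2 family genes (24) 0.05 and immediate early genes (25) 0.06. The splicing factor list (31) had 0.12, FGF and ERK feedback (24) 0.03, NODAL and activin (18) 0.17, DNA methylation (14) 0.01, Polycomb and BCOR (27) 0.09, polyamine genes (14) −0.09, branched-chain breakdown (19) −0.04, mitochondrial chaperones (17) −0.08 and lipid droplet genes (17) 0.09. EIF4EBP1, the translation brake that ATF4 controls, had 3331, 6312 and 5840 on the complete, leucine-deprived and lysine-deprived arrays, and BCOR, a corepressor, 403, 894 and 1108. MALAT1, a nuclear RNA, had 18761, 15046 and 35704, and SRSF11, a splicing factor, 8615, 8619 and 16476, but without probe sets marked as shared MALAT1 differed by −0.47 and SRSF11 by 0.19.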

How the data were processed

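RNA of khES3 cells was measured on 3 arrays, 1 for each medium. The deposited values are linear signal intensities per probe set, made by the authors with the MAS5 algorithm, as the submitters' processing notes name it; the version is not given in the sources used here. Scaling to a common mean removes any difference in total mRNA. Of 54675 probe sets 62 are controls; 41091 name 1 gene, 1801 several and 11721 none in the platform annotation, and 41037 matched RefSeq by Entrez identifier. Intensities below an array's own 40th percentile were raised to it before log2. Probe sets with a mean over the 3 arrays at or above the median were kept (23055), and a gene took its brightest one. A 2-fold difference was counted only above the floor on both arrays. No test was possible; lists are described by counts and medians. Members, lists and tests were chosen with earlier results of these data known. The rule named 12 anchor genes, the 12 highest and 12 lowest brighter genes, in each list the 4 widest differences above the floor, and 5 genes each way against the leucine-deprived array, each group of extremes with all probe sets in 1 direction, and genes with a printed promoter. Other genes, such as VEGFA, CEBPG, NANOG, PHGDH, HSP90AB1, SQLE, CCNB1 and MTHFD1, were named after their values were seen, to show members the rule leaves out. Promoters are RefSeq's, GRCh38.p14. The lysine share of encoded proteins was not analysed here. The calculations were tested on simulated data. Other normalizations tried were quantile, cyclic loess and median centring, beside other floors, level filters, probe set rules and thresholds. The tools were limma 3.58.1 in R 4.3.3 and Python 3.11.15 with numpy 2.4.6, pandas 2.3.3 and matplotlib 3.10.9. Precision is limited by the number of arrays.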

Additional observations from a re-analysis of the deposited data

Results flagged for a closer look

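RRAGB, a Rag GTPase gene, lay on opposite sides of complete medium in the 2 deprivations: −1.28 without lysine and 0.83 without leucine, at signals of 185, 328 and 76 on the complete, leucine-deprived and lysine-deprived arrays. It has 1 probe set, and its signal without lysine was near that array's floor of 62.4. Over the alternative settings its difference without lysine ran from −1.53 to −0.33. The difference between the deprivations was not tested, and with 1 array each it has no replicate.

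Probe sets that name no gene entered no comparison. Among those as bright as the brighter genes, 12 had at least 2-fold more and 5 at least 2-fold less signal without lysine. Of 577 such probe sets this is 2.08% and 0.867%, beside 1.39% and 0.432% of named brighter genes.

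The ACTB control probe sets gave a 3′ to 5′ ratio of 11.2 on the lysine-deprived array, against 5.44 on the complete-medium array. Its part in the differences was not tested.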

How the results depend on the processing

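No paired analysis was possible because each medium had 1 array, and leaving out a replicate was not possible for the same reason. The lysine share of encoded proteins was not run. The counts of genes at least 2-fold higher (516) and lower (239) moved with the choices made. Genes higher numbered 259 with median centring, 207 with a floor at the 60th percentile, 184 with the level filter at the 70th, 318 with levels from the complete-medium array alone and 118 on the next probe set; thresholds of 1.5-fold and 3-fold gave 1619 and 83. Genes lower numbered 584 with median centring, 463 and 101 with floors at the 20th and 60th percentile, 94 with the filter at the 70th and 38 on the next probe set; 1.5-fold and 3-fold gave 1063 and 24. Brighter genes higher (90) numbered 43 with median centring, 203 with that floor raised to the 60th percentile, 229 without a level filter, 51 with the filter at the 70th, 49 with complete-medium levels and 47 on the next probe set; 1.5-fold and 3-fold gave 416 and 19. Brighter genes lower (28) numbered 125, 100, 136, 12, 54 and 11 under the same settings in turn, and 322 and 0 at 1.5-fold and 3-fold. Of genes past 2-fold 68.3% were higher; the share was 30.7% with median centring, 57.7% with quantile normalization (445 higher and 326 lower), 53.3% with complete-medium levels and 61.3% with cyclic loess. Among brighter genes it was 76.3%, 25.6% with median centring and 47.6% with complete-medium levels. The ratio of higher to lower genes is thus no stable property of these arrays. Without probe sets marked as shared or cross-hybridising ATF3 was at −0.28, IDI1 at 0.47 and KLHL24 at 1.08; COL6A2 was at −1.005 with complete-medium levels and HHEX at 0.050 under a floor set at the 60th percentile. The cause was not tested. Of the other named gene values 2287 kept their size within 0.57 and 39 did not. List medians ran from 0.63 to 0.95 for ATF4 targets, from −0.62 to −0.36 for heat shock proteins, from −0.61 to −0.34 for cholesterol genes and from −0.59 to −0.31 for G2/M genes over the alternatives run.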
